A study of Mus musculus with 12 samples.

Results

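The baseline described here is the RNA of wild-type mouse primary neuronal cultures at day in vitro 11 (DIV11). Its members were chosen by the genotype label WT, written (+/+) below, which 6 of the 12 libraries of the series carry. They come from 3 of its 6 animals, named 510, 511 and 513, with 2 libraries each. The other animals carry a *Myt1l* frameshift mutation and enter no value below. All cultures were prepared from P0 pups and grown on Matrigel in media with B27 and fetal bovine serum (FBS), and the medium received 2 µM Ara-C, a drug against dividing cells, 3 days after plating. RNA was taken up in TRIzol, and the label states no further treatment. The labels give cortex and C57BL/6J mice. The paper describes primary cultures from either hippocampus or cortex, and C57BL/6N zygotes for the line. The culture age is given by the paper alone, and what distinguishes both libraries of an animal is not stated, so they were summed and an animal was 1 replicate.

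Cultures of the newborn forebrain hold postmitotic neurons together with glia that continue to form after birth, and with cells of the ventricle wall, blood vessels and meninges that come along in the dissection. Glutamatergic neurons of the cortex and hippocampus are born in the dorsal telencephalon, whereas most GABAergic interneurons migrate in from the ventral telencephalon. Neurons in such cultures also pass through isoform and paralog switches, among them changes in NMDA and GABA-A receptor subunits, chloride transporters and chromatin remodelling subunits.

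Each animal was covered by 43129302 to 52833161 counts, from libraries of 21401227 to 26594444 counts. Protein-coding genes took 98.3% of the counts in every animal, and the mitochondrial genome took 3.40% to 4.25%. Levels are given as counts per 1000000 counts (CPM) and, wherever genes are compared with each other, as CPM per kb of exonic length (CPM/kb), in the order 510, 511, 513. A level of 3 counts in an animal, used as the floor of detection, corresponded to 0.0568 to 0.0696 CPM. The labels give all animals as male, but *Xist*, the non-coding RNA of the inactive X chromosome, stood at 7, 18805 and 8 counts. The Y-linked genes *Ddx3y*, *Eif2s3y*, *Uty* and *Kdm5d* had 0 counts in 511 and 708 to 3470 counts in 510 and 513. Animal 511 therefore went against its label, and the main counts are also given without it.

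Of 55397 annotated features, 13204 reached 1 CPM/kb in each of 3 animals, which is 23.8% of all features, and among 21896 protein-coding genes 12075 did (55.1%). This threshold is called expressed below, and the 55.1% is the share beside which counts of list members are read. Without 511 the number of features was 13335, and without length correction, at 1 CPM or more, it was 14618. The median level of the expressed protein-coding genes was 7.46 CPM/kb.

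The list of the 20 highest features outside the mitochondrial genome joined glial, metal-binding and neuronal products. The metallothionein *Mt2*, which binds zinc and copper, stood at 2465, 1818 and 2550 CPM/kb, and its neighbour *Mt1* at 1943, 1405 and 1628 CPM/kb. *Apoe*, the main lipid carrier secreted by astrocytes, reached 2030, 1583 and 1973 CPM/kb. Neurons were represented at the top by the tubulin *Tuba1a* (2190, 2345 and 2060 CPM/kb) and by *Bc1*, a small non-coding RNA of dendrites (2015, 1880 and 1536 CPM/kb). The protease inhibitor *Cst3*, the ferritin heavy chain *Fth1*, the prohormone-processing enzyme *Cpe*, the glutathione transferase *Gstm1*, the actin-binding peptide *Tmsb4x* and the translation factor *Eef1a1* also belonged to the 20, all between 942 and 1580 CPM/kb. Of the 20 features, 7 were shorter than 200 bases and 10 overlapped another feature on the same strand. The short *Gm23419*, *Gm22133*, *Mir5114*, *Gm27597*, *Gm26377* and *Mir5121* lie within the abundant genes *Actg1*, *Ftl1*, *Scd2*, *Rpl19*, *Eef1a1* and *Rpl13a*, and *Gm49450* and *Gm49369* overlap *Tuba1a* and *Ctsd*. Reads of overlapping features on 1 strand cannot be told apart here, so these are not levels of separate RNAs.

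**Figure D1:**
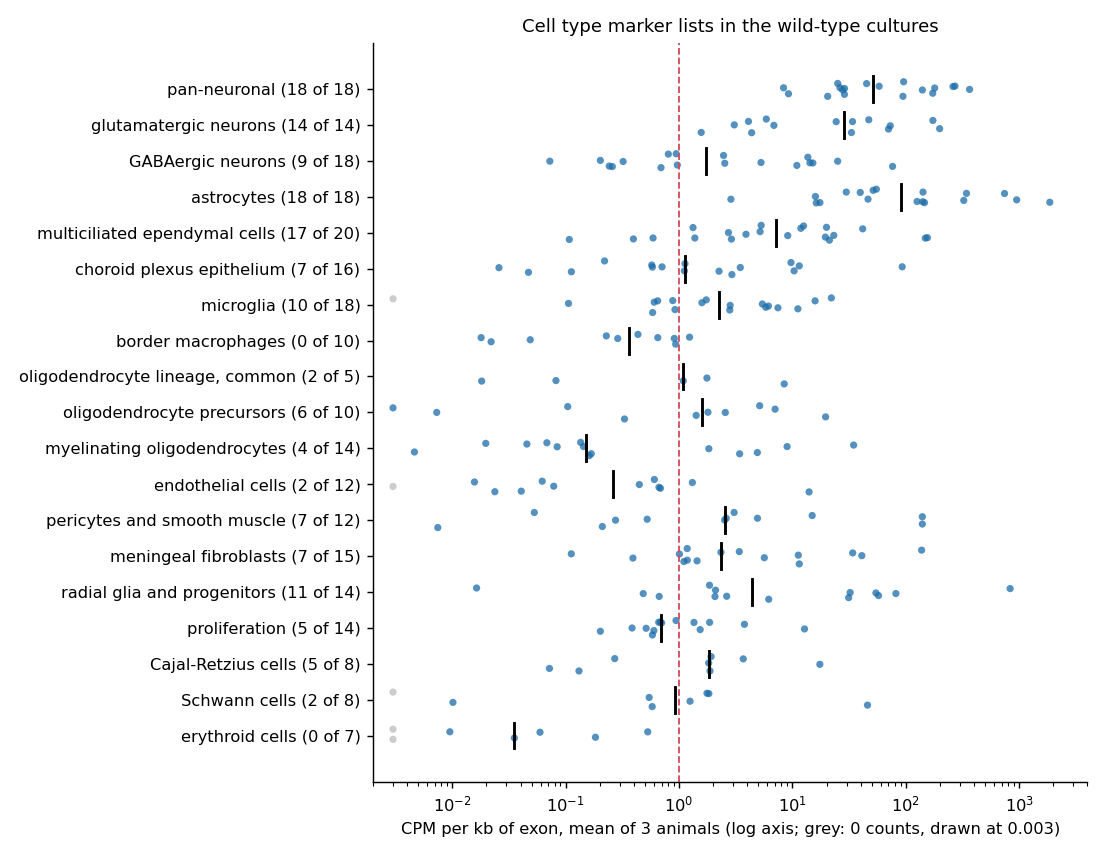
Each point is 1 marker gene at its mean CPM per kb over 3 animals (log axis), the black bar is the list's median, the dashed line marks 1 CPM per kb, and the counts in brackets give members at or above that level in every animal. The pan-neuronal, glutamatergic and astrocyte lists lie wholly to the right of the line, and the border macrophage and erythroid lists hold no expressed member.

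Neuronal genes were expressed throughout. All 18 pan-neuronal genes were expressed, with a median of 51.6 CPM/kb. *Tubb3* (chr8:123411424-123422015, plus strand, mm10), the neuronal β-tubulin used to mark these cells, stood at 357, 407 and 332 CPM/kb. The ubiquitin hydrolase *Uchl1* (267, 288 and 261 CPM/kb), the growth cone protein *Gap43* (252, 297 and 234 CPM/kb) and the microtubule regulator *Stmn2* (180, 202 and 157 CPM/kb) followed. The neurofilament light chain *Nefl* lay at 174, 185 and 159 CPM/kb and the vesicle protein *Syp* at 137, 155 and 129 CPM/kb. Animal 511 had the highest value in each of these 6 genes. *Myt1l*, a zinc-finger repressor of neurons and the gene mutated in the other animals, was expressed at 8.37, 10.4 and 7.70 CPM/kb.

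Glutamatergic genes were present throughout. All 14 were expressed (median 28.7 CPM/kb), against 9 of 18 GABAergic genes (median 1.72 CPM/kb), a share near the 55.1% of all protein-coding genes. Without length correction 15 of the 18 GABAergic genes passed. The synaptic kinase *Camk2a* stood at 194, 194 and 208 CPM/kb, and *Slc17a7*, which loads glutamate into vesicles, at 171, 200 and 149 CPM/kb. The activity-linked *Nrn1* lay at 72.2, 79.1 and 67.5 CPM/kb, and the transcription factors *Neurod6* (63.8, 82.8 and 64.6 CPM/kb) and *Bhlhe22* (48.0, 58.0 and 35.3 CPM/kb) were as clear.

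Among GABAergic genes, the vesicular transporter *Slc32a1* reached 15.7, 14.6 and 12.5 CPM/kb. The GABA-synthesising enzymes *Gad1* and *Gad2* had 17.6, 13.9 and 14 CPM/kb and 11.7, 10.6 and 10.5 CPM/kb. *Slc17a7* thus exceeded *Slc32a1* by a log2 ratio of 3.60 ± 0.17 (SD, n = 3 animals), a 12.1-fold difference in the same direction in 3 of 3 animals. This pair was added after the values were seen.

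The genes below the threshold in the GABAergic list were mainly transcription factors of the migrating precursor, *Dlx1*, *Dlx2*, *Dlx5*, *Dlx6*, *Sp8* and *Sp9*, at 0.195 to 1.00 CPM/kb. Some genes listed for mature interneuron classes were higher. The neuropeptide *Npy* stood at 79.7, 63.8 and 85.8 CPM/kb, the calcium buffer *Pvalb* at 23.2, 19.7 and 32.2 CPM/kb and the peptide *Sst* at 13.5, 15.4 and 12.1 CPM/kb. *Npy* and *Pvalb* were highest in 513, whereas *Slc32a1* and *Sst* were lowest there. Which cells made these RNAs was not tested. *Vip*, which marks another interneuron class, had only 18, 16 and 2 counts. Among 16 genes of interneuron classes, 12 were expressed, among them the peptide *Cck* (63.4, 69.7 and 64.5 CPM/kb), which pyramidal cells make as well, and the calcium buffer *Calb2* (18.3, 21.5 and 12.5 CPM/kb).

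Most transmitter genes of other neurons were not expressed. Of 18 transmitter identity genes 7 were expressed, 5 of which belong to glutamate or GABA. The remaining pair was the histamine enzyme *Hdc* (1.42, 1.18 and 1.81 CPM/kb) and the vesicular monoamine transporter *Slc18a2* (1.37, 1.32 and 1.45 CPM/kb). The acetylcholine enzyme *Chat* had 8, 4 and 5 counts, the dopamine enzyme *Th* 30, 5 and 12 counts, and the glycine transporter *Slc6a5* 9, 6 and 9 counts.

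Astrocyte genes were the highest list in sum. All 18 were expressed, with a median of 90.3 CPM/kb and summed levels of 4880, 4265 and 6009 CPM/kb. Because these are bulk samples, fewer cells of a type and less RNA per cell cannot be told apart here or in any list below. *Gfap* (chr11:102887336-102900912, minus strand, mm10), the astrocyte intermediate filament, stood at 647, 759 and 1445 CPM/kb, so 513 lay far above the other animals. The chaperone *Clu* (798, 637 and 792 CPM/kb), the membrane protein *Mlc1* (318, 263 and 392 CPM/kb) and the glycolytic enzyme *Aldoc* (292, 310 and 426 CPM/kb) were the next highest after *Apoe*. *Glul*, which turns glutamate into glutamine, had 123, 122 and 193 CPM/kb. *Gfap* exceeded *Tubb3* in 3 of 3 animals, with log2 ratios of 0.86, 0.90 and 2.12, a comparison that was also added after the values were seen.

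Radial glia share much of the astrocyte programme, and 11 of 14 genes of their list were expressed. The filament *Vim* stood at 748, 699 and 1048 CPM/kb, the lipid-binding *Fabp7* at 68.7, 67.6 and 109 CPM/kb, *Hopx* at 54.8, 52.5 and 65.0 CPM/kb and the stem cell factor *Sox2* at 57.7, 47.8 and 58.0 CPM/kb. *Eomes*, the marker of intermediate progenitors, had 0, 4 and 5 counts. *Hes5*, also of this list, lay below the threshold at 0.639, 0.436 and 0.374 CPM/kb. Of 14 proliferation genes 5 were expressed, and 13 without length correction, led by the replication clamp *Pcna* (12.5, 13.7 and 12.2 CPM/kb), which also serves DNA repair. *Mki67*, present in all phases of the active cell cycle, reached 0.459, 0.420 and 0.657 CPM/kb.

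Multiciliated ependymal cells line the ventricles and move fluid with motile cilia, and their genes were well represented. Of 20 genes 17 were expressed, with a median of 7.19 CPM/kb and summed levels of 480, 401 and 579 CPM/kb. *Foxj1* (chr11:116330704-116335399, minus strand, mm10), the transcription factor that directs motile cilia, stood at 151, 132 and 183 CPM/kb. The tubulin-binding *Tppp3* had 158, 125 and 163 CPM/kb, the dynein light chain *Dynlrb2* 38.6, 32.3 and 54.1 CPM/kb and the axonemal *Cfap126* 22.4, 19.2 and 27.9 CPM/kb. The radial spoke gene *Rsph1* (17, 16 and 30.5 CPM/kb) and *Tmem212* (21.3, 15.7 and 23.0 CPM/kb) completed the upper end. Animal 513 held the highest value in 17 of the 20 genes.

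The members below the threshold were *Mcidas* and *Deup1*, which act early while centrioles multiply, and *Sntn*, a protein of the ciliary tip. *Mcidas* had 12, 14 and 10 counts, and *Deup1* lay at 0.269, 0.253 and 0.665 CPM/kb. *Sntn* had 29, 22 and 50 counts, again with 513 highest.

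RFX factors are a conserved class of regulators of ciliary genes, and they bind an inverted repeat called the X-box. *Rfx4* (8.81, 7.12 and 8.43 CPM/kb) and *Rfx3* (6.85, 6.62 and 7.02 CPM/kb) were the highest of 6 RFX genes, though *Rfx3* came out above *Rfx4* when no length correction was made. The half-sites GTNNCC and GGNAAC with 2 bases between them, in which N is any base, were searched on both strands in promoter windows from RefSeq (build GRCm38, 250 bases before to 50 after a gene's start). They occurred in 1.29% of 32851 windows, and at 403 of 27025 genes (1.49%). Promoters were matched for 16 of the 20 ependymal genes, and 4 of these held the motif, against 0 of 12 pan-neuronal, 0 of 15 astrocyte, 0 of 12 choroid plexus and 1 of 14 subpallial genes matched. A match is a description of letters and no measured site. The 4 windows are shown because they are the ciliary promoters with the motif, written 5′ to 3′ on the strand of the gene, with the motif in capitals.
*Pifo*, chr3:106001491-106001530, minus strand: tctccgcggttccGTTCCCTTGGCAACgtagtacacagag
*Deup1*, chr9:15627907-15627946, minus strand: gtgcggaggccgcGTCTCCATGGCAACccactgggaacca
*Ccno*, chr13:112987570-112987609, plus strand: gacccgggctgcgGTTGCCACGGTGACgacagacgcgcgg
*Spag6l*, chr16:16829314-16829342, minus strand: ccggttgctgtcgGTTGCCCTGGAGACgc
The levels behind these promoters ran over a wide range. *Pifo*, involved in cilium disassembly, had 12.3, 10.3 and 15 CPM/kb, and the central-pair protein *Spag6l* 7.93, 7.49 and 11.8 CPM/kb. *Ccno*, needed for centriole amplification, stood at 1.76, 1.33 and 1.04 CPM/kb, above *Deup1*, which did not reach the threshold. In *Pifo* and *Deup1* the motif reads on the strand of the gene, and in *Ccno* and *Spag6l* on the opposite strand.

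Choroid plexus epithelium secretes the cerebrospinal fluid and was represented by part of its list. Of 16 genes 7 were expressed (43.8%, against 55.1% of all protein-coding genes), with a median of 1.12 CPM/kb. *Ttr*, the thyroid hormone carrier, stood at 170, 69.2 and 39.4 CPM/kb, and the water channel *Aqp1* at 8.28, 19.3 and 1.51 CPM/kb. The orders of the animals in these genes differed, with 510 highest for *Ttr* and 511 highest for *Aqp1*. The folate receptor *Folr1* (13, 10.1 and 11.5 CPM/kb) and the lipid enzyme *Enpp2* (13, 9.37 and 8.65 CPM/kb) varied less. The defining channel subunit *Kcne2* had 6, 0 and 1 counts.

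Of 18 microglial genes 10 were expressed (median 2.27 CPM/kb), a share near the 55.1% of all protein-coding genes. The complement genes *C1qa* and *C1qb* had 12.6, 21.1 and 13.8 CPM/kb and 8.79, 15.4 and 9.31 CPM/kb, with 511 highest in both. *Cx3cr1* (chr9:119901616-120069879, minus strand, mm10), the fractalkine receptor that marks microglia, lay at 0.718, 1.10 and 0.947 CPM/kb, and passed the threshold in 511 alone. *P2ry12* stood at 0.335, 0.329 and 1.15 CPM/kb, and *Siglech* had 0 counts in every animal. Of 10 border macrophage genes none reached the threshold in every animal, and the highest, *Stab1*, *Mrc1* and *Pf4*, stood at 0.854, 1.84 and 1.02 CPM/kb, 0.588, 1.65 and 0.560 CPM/kb, and 0.473, 1.86 and 0.386 CPM/kb. Without 510 the count for this list was 1.

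Oligodendrocyte lineage markers were incomplete. *Olig2* (chr16:91225457-91228677, plus strand, mm10), the transcription factor that starts this lineage, stood at 0.830, 0.688 and 1.75 CPM/kb, and *Olig1* at 5.05, 5.60 and 14.7 CPM/kb. *Sox10*, which all cells of the committed lineage require, had 4, 2 and 2 counts. Of 10 precursor genes 6 were expressed, a share near the 55.1% of all protein-coding genes. They were led by *Ptprz1* (16.6, 16.2 and 26.1 CPM/kb) and *Tnr* (5.70, 6.50 and 8.89 CPM/kb), which astrocytes or neurons also make. *Pdgfra*, the receptor that defines precursors, had 0.291, 0.501 and 0.199 CPM/kb. Of 14 myelin genes 4 were expressed, with *Cnp* at 31.8, 28.0 and 44.2 CPM/kb and *Mbp* at 5.43, 4.90 and 4.38 CPM/kb. The mature markers *Mog* (9, 6 and 2 counts) and *Opalin* (1, 1 and 0 counts) were at or near the floor.

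Vascular lists were expressed in part. Of 12 endothelial genes 2 were expressed, *Slco1a4* (13.8, 12.2 and 16 CPM/kb), a transporter also found in astrocytes, and *Kdr* (1.64, 1.22 and 1.07 CPM/kb). The tight junction gene *Cldn5* had 3, 2 and 0 counts and the receptor *Tie1* 0 counts, both at or under the floor, and the adhesion molecule *Pecam1* had 30, 26 and 14 counts. *Flt1* (0.465, 0.480 and 0.393 CPM/kb), *Esam* (0.568, 0.791 and 0.696 CPM/kb) and the endothelial cadherin *Cdh5* (0.590, 1.31 and 0.0993 CPM/kb) were above the floor but did not reach the threshold in every animal. Endothelial markers were thus detected in part, at low levels. Of 12 pericyte and smooth muscle genes 7 were expressed, a share near the 55.1% of all protein-coding genes. The expressed genes were led by the actin *Acta2* (163, 125 and 131 CPM/kb) and *Tagln* (171, 120 and 129 CPM/kb). The pericyte markers *Pdgfrb* (4.15, 5.49 and 5.11 CPM/kb), *Rgs5* (2.29, 2.26 and 3.27 CPM/kb) and *Vtn* (2.80, 2.87 and 1.91 CPM/kb) were among them, whereas *Higd1b*, which also marks brain pericytes, had 1, 0 and 0 counts.

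Of 15 meningeal fibroblast genes 7 were expressed (46.7%, against 55.1% of all protein-coding genes). They were led by the small proteoglycans *Fmod* (127, 127 and 159 CPM/kb) and *Ogn* (41.6, 41.7 and 39.5 CPM/kb). The collagens *Col1a1* (33.1, 55.9 and 12.9 CPM/kb) and *Col3a1* (10.6, 19.97 and 3.19 CPM/kb) were uneven between animals and ordered alike, and without 513 the count of expressed fibroblast genes was 11. Of 8 Cajal-Retzius genes 5 were expressed (62.5%, not far from that share). Among them *Reln*, which interneurons also make, stood at 3.86, 2.99 and 4.20 CPM/kb, and *Trp73* at 2.03, 1.61 and 2.11 CPM/kb. Which cells made either RNA was not tested. Of 8 Schwann cell genes 2 were expressed, among them *Pmp22* (49.6, 44.0 and 44.2 CPM/kb), which fibroblasts also make. Without 510, 4 of the 8 Schwann cell genes passed. No erythroid gene of 7 was expressed.

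All 14 immediate early and stress genes were expressed, with a median of 31.5 CPM/kb. Among the genes induced by neuronal activity, *Junb* stood at 117, 112 and 83.0 CPM/kb, *Fos* at 85.8, 95.6 and 90.8 CPM/kb and *Egr1* at 36.9, 41.8 and 40.3 CPM/kb. *Npas4*, which responds to calcium entry in neurons, had 30.7, 37.8 and 32.5 CPM/kb. The endoplasmic reticulum chaperone *Hspa5* lay at 98.3, 89.7 and 99.4 CPM/kb and the asparagine synthetase *Asns* at 34.7, 38.7 and 28.2 CPM/kb. The animals lay close together, with a 1.12-fold range of the list's mean.

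**Figure D2:**
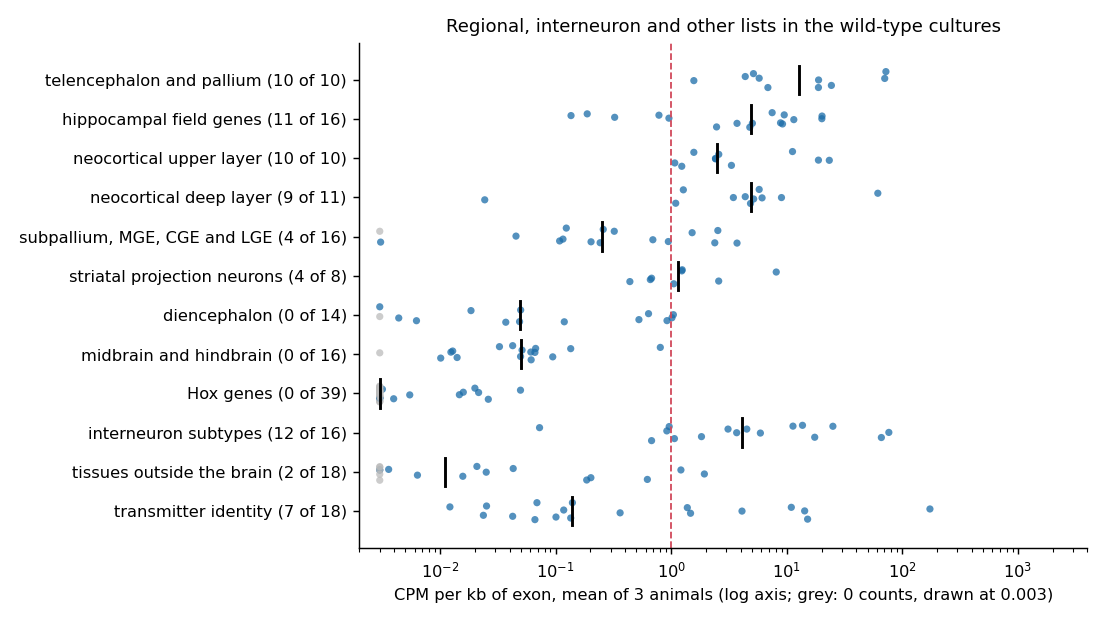
Points are genes of regional, interneuron, transmitter and outside-tissue lists at their mean CPM per kb over 3 animals (log axis), with the median as a black bar and 1 CPM per kb as a dashed line. Telencephalic genes lie above the line in full, whereas no diencephalic, midbrain, hindbrain or Hox gene was expressed, and 28 of the 39 Hox genes had 0 counts in every animal.

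Genes of the dorsal telencephalon were expressed in full. All 10 telencephalic and pallial genes were expressed (median 12.8 CPM/kb). The early forebrain factor *Lhx2* stood at 18.3, 19 and 19 CPM/kb, the repressor *Zbtb18* at 67.3, 85.6 and 63.3 CPM/kb and the pallial *Emx1* at 7.28, 7.46 and 5.84 CPM/kb. None of 14 diencephalic, 16 midbrain and hindbrain and 39 Hox genes was expressed, and 6, 3 and 34 of them were at or under 3 counts in every animal. Without length correction 5 diencephalic and 1 midbrain and hindbrain gene passed. The highest of the diencephalic genes, *Tcf7l2*, had 1.04, 0.969 and 1.12 CPM/kb and so missed the threshold in 511 alone, and without 511 it was the only gene of that list to pass. In the subpallial list 4 of 16 genes were expressed, *Prox1*, *Lhx6*, *Nr2f2* and *Foxp1*, which cortical or hippocampal neurons also carry. The ventral patterning gene *Nkx2-1* had 13, 17 and 13 counts, *Lhx8* had 0, 0 and 1 counts, and *Isl1* had 0.

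Hippocampal field genes and neocortical layer genes were both present. Of 16 field genes 11 were expressed (median 4.91 CPM/kb). *Prox1* (chr1:190118035-190170714, minus strand, mm10), which specifies dentate granule cells and also marks some interneurons, stood at 3.73, 3.85 and 3.54 CPM/kb. *Wfs1*, high in CA1 pyramidal cells, had 19.8, 22.6 and 18.1 CPM/kb, *Cabp7* 19.8, 23.0 and 17.5 CPM/kb and *Zbtb20*, a hippocampal repressor also made by astrocytes, 9.29, 11.1 and 14.1 CPM/kb. *Fibcd1* (6.59, 11.0 and 10.9 CPM/kb) and the kainate receptor subunit *Grik4* (9.31, 9.99 and 8.25 CPM/kb) followed.

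Of 10 upper layer genes all were expressed, and of 11 deep layer genes 9. *Crym* stood out at 57.2, 71.1 and 55.7 CPM/kb. *Cux2*, a factor of upper layers and of dentate cells, had 2.66, 2.92 and 2.15 CPM/kb. *Fezf2*, which directs subcerebral neurons, stood at 5.70, 6.24 and 6.38 CPM/kb, *Bcl11b* at 4.85, 7.43 and 5.02 CPM/kb and *Tbr1* at 4.57, 4.82 and 3.71 CPM/kb. *Foxp2*, a layer 6 marker, had 9, 39 and 7 counts. Many of these genes are active in both tissues, and whether the cultures came from cortex or hippocampus was not tested.

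Striatal genes had a median of 1.14 CPM/kb, and 4 of 8 were expressed, a share (50%) near the 55.1% of all protein-coding genes. All 8 passed when CPM was not divided by length. The phosphatase inhibitor *Ppp1r1b* (7.38, 10.1 and 6.84 CPM/kb) and *Penk* (2.39, 2.45 and 2.88 CPM/kb) led them. Of 18 genes that define tissues outside the brain 2 were expressed, the muscle actin *Acta1* (2.19, 2.25 and 1.36 CPM/kb) and *Apoa2* (35, 27 and 30 counts). At or under 3 counts in every animal were 11, among them *Alb* of the liver, *Ins1* of the pancreas and *Prm1* of the testis.

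Which paralog dominated was asked of 86 gene families with 336 measured members. Of these members 290 were expressed, beside 55.1% of all protein-coding genes, in families chosen with earlier results of these data known. The same member led in 3 of 3 animals in 82 families, and in 83 of 86 without 511. In 51 families the leader took over 50% of the summed CPM/kb in every animal. In a family of 2 members a constant leader passes this mark by construction. In 70 families its mean log2 ratio to the next member was over 2 SD between animals. A leading place can depend on the exonic length used, and the families in which it did are named with their values in the closing part.

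**Figure D3:**
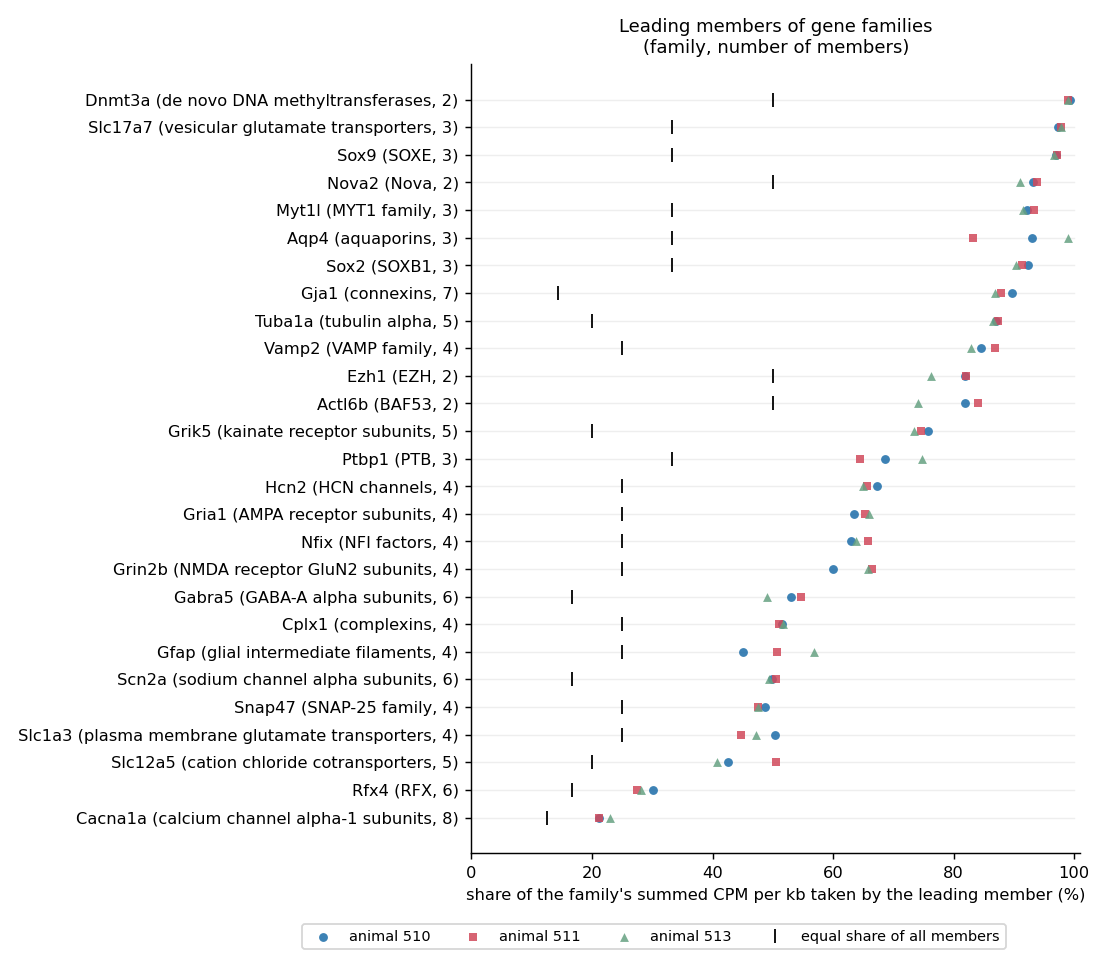
For 27 of the 86 gene families, points give the leading member's share (%) of the family's summed CPM per kb in each of 3 animals, and black ticks mark the share that equal members would have. *Dnmt3a*, *Slc17a7* and *Sox9* took over 96% in every animal, whereas *Slc1a3*, *Cacna1a* and *Gfap* did not lead in all animals.

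In the cytoskeleton, *Tuba1a* took 87.1%, 87.4% and 86.5% of the α-tubulins, while β-tubulin was shared, with *Tubb2a* (874, 962 and 759 CPM/kb) first and *Tubb2b* (564, 653 and 478 CPM/kb) next. These tubulins are near-identical, and so are the actins *Actb* (825, 782 and 731 CPM/kb) and *Actg1* (560, 515 and 442 CPM/kb), so the split of reads among them is uncertain. *Nefl* took 64.1% to 66.4% of the neuronal intermediate filaments, ahead of *Ina*. Among glial filaments *Vim* led in 510 and *Gfap* in 511 and 513.

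In the presynapse, the vesicle SNARE *Vamp2* took 84.5%, 86.9% and 82.9% of its family (198, 222 and 176 CPM/kb). *Cplx1* (165, 183 and 158 CPM/kb) and *Cplx2* (155, 176 and 147 CPM/kb) were nearly even, with a log2 ratio of 0.08 ± 0.02. *Snap47* (100, 107 and 91.2 CPM/kb) and *Snap25* (92.2, 105 and 86.3 CPM/kb) were as close, and both orders turned without length correction. *Slc17a7* held 97.2%, 97.8% and 97.8% of the vesicular glutamate transporters.

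At the postsynapse, the AMPA receptor subunit *Gria1* (58.9, 69.9 and 73.5 CPM/kb) took 63.4% to 65.9%, ahead of *Gria2* (16.1, 19 and 17.6 CPM/kb), whose edited form keeps calcium out. *Grin2b* (8.02, 12.7 and 9.95 CPM/kb), the GluN2 subunit of young synapses, held 60.0%, 66.4% and 65.8%, and *Grin2a*, its successor during maturation, stood at 2.27, 3.11 and 2.67 CPM/kb. *Grik5* took 73.3% to 75.8% of the kainate receptor subunits. *Nlgn2*, which sits at inhibitory synapses, led the neuroligins with 49.4, 54.5 and 41.5 CPM/kb, and *Nrxn2* the neurexins with 37.7, 44.7 and 34.0 CPM/kb. Scaffolds were led by *Dlg4* (37.9, 40.1 and 35.7 CPM/kb) and *Shank3* (24.2, 23.9 and 25.4 CPM/kb).

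For GABA-A receptors, *Gabra5*, the extrasynaptic α-subunit enriched in the hippocampus, had 35.2, 42.4 and 37.6 CPM/kb and 49.1% to 54.6% of the α-subunits. *Gabra2* followed with 13.4, 15.6 and 23.5 CPM/kb, with 513 highest, and stood above *Gabra5* in 513 alone when lengths were ignored. The glutamate transporters of astrocytes, *Slc1a3* (156, 124 and 146 CPM/kb) and *Slc1a2* (139, 135 and 149 CPM/kb), did not differ beyond their spread, with a log2 ratio of 0.004 ± 0.148.

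Among channels, *Scn2a* (12.9, 16.3 and 14 CPM/kb) led the sodium channel α-subunits with 49.4% to 50.5%, followed by *Scn8a* (7.31, 9.84 and 8.49 CPM/kb). *Hcn2* took 65.0% to 67.3% of the HCN channels. The calcium channels *Cacna1a* (9.92, 12.1 and 10.9 CPM/kb) and *Cacna1b* (9.01, 12.2 and 10.1 CPM/kb) changed places between animals.

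Glial and metabolic families were led by *Aqp4* (112, 96.7 and 168 CPM/kb) among the aquaporins and by the connexin *Gja1* (49.9, 42.4 and 62.2 CPM/kb). The share of *Aqp4* was 92.9%, 83.2% and 98.9%, and its counterpart *Aqp1* followed the reverse order of animals. Brain-type creatine kinase *Ckb* took 90.8% to 93.9%. The glycolytic enzymes *Aldoa* (859, 837 and 690 CPM/kb), *Eno1* (320, 347 and 308 CPM/kb) and *Ldha* (388, 428 and 325 CPM/kb) led their families in every animal.

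Among nuclear factors, *Dnmt3a* held 98.9% to 99.3% of the de novo DNA methyltransferases, the enzymes that set new methyl marks. *Myt1l* took 92.2%, 93.3% and 91.6% of the MYT1 family, and *Myt1*, its relative in progenitors, stayed at 0.451 to 0.533 CPM/kb. *Sox9* (58.2, 50.5 and 56.2 CPM/kb), a factor of astrocytes and ependymal cells, held 96.6% to 97.1% of the SOXE genes, and *Sox2* 90.2% to 92.4% of SOXB1. *Nfix* (54.1, 62.2 and 64.8 CPM/kb) led the NFI factors, *Id3* (113, 111 and 153 CPM/kb) the ID proteins, *Notch2* (7.42, 7.34 and 11.8 CPM/kb) the Notch receptors and *Hey1* (23.5, 22.2 and 29.3 CPM/kb) the HES and HEY genes. Of the RNA-binding factors, *Nova2* took 91.0% to 93.8%, *Elavl3* 59.6% to 61.2% and *Ptbp1* 64.4% to 74.8% of their families.

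**Figure D4:**
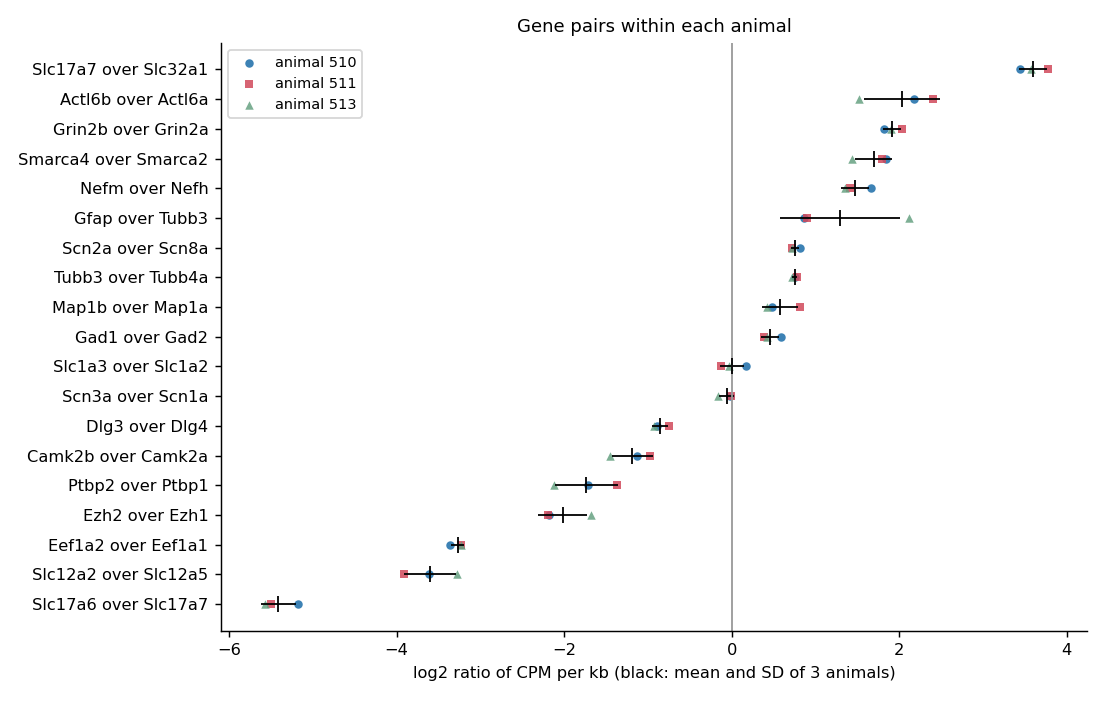
Points show the log2 ratio of CPM per kb of 2 genes in each animal, and black marks give the mean with its SD over 3 animals. All pairs shown but *Slc1a3* over *Slc1a2* have 1 sign in 3 of 3 animals.

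Pairs of related genes, among them pairs whose balance shifts as neurons mature, were compared within each animal. The comparison used an exact two-sided sign-flip permutation test, which cannot go below p = 0.25 with 3 animals. In 18 of 19 pairs the sign was the same in 3 of 3 animals, each with an exact permutation p = 0.25, and they are read by size and spread. The chloride exporter *Slc12a5* (37.0, 45.5 and 31.6 CPM/kb) exceeded the importer *Slc12a2* 12.2-fold (log2 3.60 on the side of the exporter, SD 0.31). *Grin2b* exceeded *Grin2a* 3.78-fold (log2 1.92 ± 0.11), the side of the younger subunit. Maturation pairs thus did not all lie on the same side. In these bulk ratios neuronal stage and cell composition cannot be told apart.

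*Actl6b*, the chromatin remodelling subunit of postmitotic neurons, stood above the progenitor subunit *Actl6a* (log2 2.18, 2.40 and 1.52), and *Ezh1*, the Polycomb enzyme of resting cells, above *Ezh2* 4.06-fold. The splicing repressor of neurons, *Ptbp2*, lay below *Ptbp1* (log2 -1.71, -1.37 and -2.12), a gene that glia keep. In these pairs 513 lay farthest toward *Actl6a*, *Ezh2* and *Ptbp1*. *Ezh2* itself stood at 1.01, 0.911 and 1.19 CPM/kb and so was not expressed by the threshold used here. *Slc17a7* exceeded *Slc17a6* 42.7-fold (log2 ratio of *Slc17a6* to *Slc17a7* -5.42 ± 0.21). *Eef1a1* exceeded *Eef1a2*, which takes over in mature neurons, 9.67-fold, and *Camk2a* exceeded *Camk2b* 2.28-fold.

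Smaller ratios separated other pairs. *Scn2a* exceeded *Scn8a* 1.69-fold (log2 0.75 ± 0.05), *Tubb3* exceeded *Tubb4a* 1.68-fold (log2 0.75 ± 0.03) and *Gad1* exceeded *Gad2* 1.38-fold (log2 0.46 ± 0.11). *Nefm* lay above *Nefh* (log2 1.47 ± 0.17), *Map1b* above *Map1a* (log2 0.58 ± 0.21), *Dlg4* above *Dlg3* (1.81-fold) and *Smarca4* above *Smarca2* (3.24-fold). The early sodium channel *Scn3a* and *Scn1a* did not differ beyond their spread, with a log2 ratio of -0.06 ± 0.09.

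**Figure D5:**
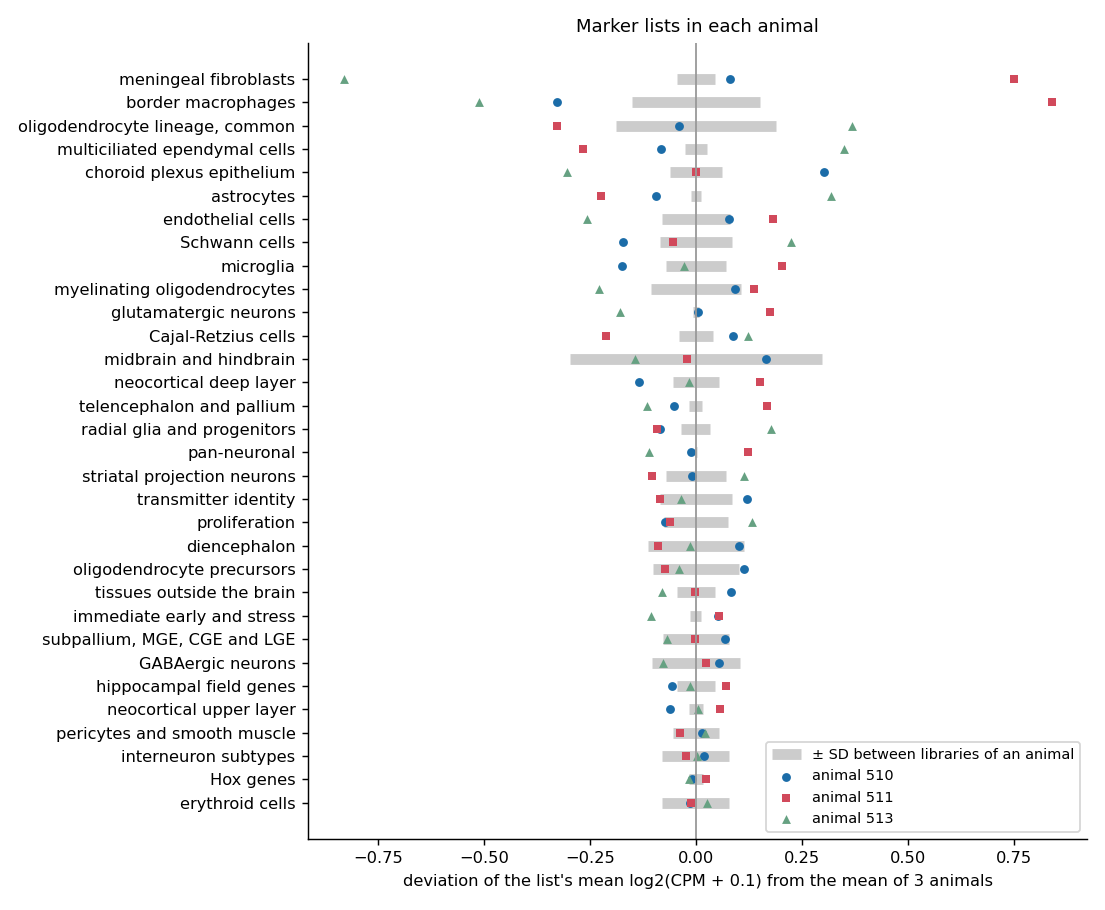
Points give the deviation of each list's mean log2(CPM + 0.1) in an animal from the mean of 3 animals, and grey bars the SD between both libraries of an animal. Animal 511 lies at 0.75 and 513 at -0.83 for meningeal fibroblast genes, whereas the regional lists stay within about 0.2 of 0.

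Marker lists varied unequally between the animals. Over the expressed features the median SD between animals was 0.13 on the log2(CPM + 0.1) scale, against 0.05 between both libraries of an animal, and 259 features (1.96%) differed over 2-fold between the highest and the lowest animal. Meningeal fibroblast genes had the widest range, with mean deviations of 0.08, 0.75 and -0.83 in 510, 511 and 513, a 2.996-fold range, and 13 of 15 genes were highest in 511. The leading members *Fmod* and *Ogn* did not share this order, and the summed levels of the list were 240, 294 and 226 CPM/kb. Border macrophage genes deviated by -0.33, 0.84 and -0.51, and 9 of 10 were highest in 511. Without 511 the log2 ranges of these lists were 0.91 and 0.18, in place of 1.58 and 1.35.

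Astrocyte and ependymal genes went the other way. The deviations were -0.09, -0.22 and 0.32 for astrocytes, with 14 of 18 genes highest in 513, and -0.08, -0.27 and 0.35 for ependymal genes, whereas choroid plexus genes were highest in 510 (0.30, 0.00 and -0.30). Without 513 the log2 ranges of the astrocyte and ependymal lists were 0.13 and 0.19, in place of 0.54 and 0.62. Pan-neuronal genes deviated by -0.01, 0.12 and -0.11 and glutamatergic genes by 0.00, 0.17 and -0.18. Neocortical upper layer, hippocampal field, interneuron and GABAergic lists had ranges of 1.03-fold to 1.10-fold. With 3 animals, the part that sex, litter or dissection had in these differences was not tested.

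Single features showed the same contrast. Outside the X and Y chromosomes, *Aqp1* differed most, with 21.7, 50.8 and 3.96 CPM, a 12.8-fold range. The matrix protein *Mgp* (2.74, 13.5 and 1.18 CPM), the growth factor *Igf2* (24.3, 65.3 and 7.35 CPM), the leptin receptor *Lepr* (13.6, 24.7 and 2.97 CPM), the lipocalin *Apod* (7.63, 16.6 and 2.04 CPM) and *Tmem119* (6.55, 11.6 and 1.48 CPM) were all highest in 511 and lowest in 513. *Tmem119* is a microglial marker that mesenchymal cells also make, and it did not follow the order of *Cx3cr1*. *Gm49394* overlaps *Igf2* on the same strand and had almost equal counts in each animal, 1264, 2905 and 313 against 1285, 2963 and 317, whereas the opposite strand held 7, 3 and 2 counts of *Igf2os*.

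Host RNAs of microRNAs add a layer of cell identity, although the library counts the host and not the mature form. *H19*, the imprinted RNA next to *Igf2* that holds miR-675, followed *Igf2* with 36.6, 95.6 and 11.9 CPM, an 8.004-fold range. *Mir22hg* stood at 10.7, 10.1 and 12.2 CPM/kb, *Mir9-3hg* at 3.95, 4.81 and 5.53 CPM/kb, *Mir100hg* at 1.92, 1.62 and 2.02 CPM/kb and *Mirg* at 1.05, 1.00 and 1.07 CPM/kb. *Mir124a-1hg*, the host of a neuronal microRNA, was expressed at 5.24, 4.52 and 4.11 CPM/kb. *Mir142hg*, a host of haematopoietic cells, had 2, 2 and 0 counts, *Mir155hg*, induced in immune cells, 11, 6 and 6 counts, and the host of the proliferation-linked miR-17 cluster, *Mir17hg*, 13, 8 and 7 counts.

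Mature sequences of these hosts from RefSeq (build GRCm38) are shown 5′ to 3′ with the seed, bases 2 to 8, in capitals, first those of expressed hosts and then those of hosts below the threshold.
miR-9-5p (*Mir9-3hg*, chr7:79505279-79505301): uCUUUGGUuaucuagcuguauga
miR-22-3p (*Mir22hg*, chr11:75463772-75463793): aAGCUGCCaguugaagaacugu
miR-100-5p (*Mir100hg*, chr9:41531437-41531458): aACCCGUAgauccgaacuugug
miR-125b-5p (*Mir100hg*, chr9:41581940-41581961): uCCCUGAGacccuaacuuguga
miR-409-3p (*Mirg*, chr12:109743204-109743225): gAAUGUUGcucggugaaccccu
miR-675-5p (*H19*, chr7:142577112-142577133): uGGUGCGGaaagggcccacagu
miR-99a-5p (*Mir99ahg*, chr16:77598940-77598961): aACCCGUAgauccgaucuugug
miR-142a-3p (*Mir142hg*, chr11:87756903-87756925): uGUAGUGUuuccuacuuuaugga
miR-155-5p (*Mir155hg*, chr16:84714143-84714165): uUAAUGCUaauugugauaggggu
miR-17-5p (*Mir17hg*, chr14:115043684-115043706): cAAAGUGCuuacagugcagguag
miR-100-5p and miR-99a-5p share the seed ACCCGUA, and both hosts also hold a copy of miR-125b-5p. The level of *Mir99ahg* was lower than that of *Mir100hg* in every animal, at 0.339, 0.282 and 0.379 CPM/kb. *Mir9-3hg* was highest in 513 and *Mir124a-1hg* in 510.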

How the data were processed

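RNA of (+/+) cultures from 3 animals with 2 libraries each was used. For every gene and library the authors deposited a raw count, made from dUTP (strand-marked) libraries mapped to mm10 with STAR. The counting tool and its handling of reads with several positions are not given in the sources used here. Deposited normalised counts and a table of the authors' genotype comparison (fold changes and p-values) were not used.

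Counts of both libraries were summed per animal, divided by the total (CPM) and by the exonic length in kb that the deposited table gives (CPM per kb). Where features shared a symbol, the longest was taken. A feature at 1 CPM per kb or more in each animal was called expressed. Log2 values used a pseudocount of 0.1 CPM. Gene types came from GENCODE M21, which held 55137 of 55397 IDs. Tools were Python 3.11.15, R 4.3.3, edgeR 4.0.16 and DESeq2 1.42.0, the latter for scaling alternatives only, and scripts were tested on simulated data. Intervals between animals are SD. With a single group, no genes were tested between groups.

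Members, 32 lists, 86 families and 19 pairs were chosen with earlier results of these data known. Named were the 20 highest features, up to 6 leading members of each list and those at or under 3 counts in every animal, 2 leading members of each family, the pairs, and the 15 features of widest range between animals with 10 CPM or more in at least 1 animal. Other genes named, mostly near the floor, were chosen after their values were seen, as were 2 pairs, the microRNA hosts and the promoter motif. Some genes that these rules name are not reported here.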

Additional observations from a re-analysis of the deposited data

How the results depend on the processing

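The number of expressed features stayed between 11269 (threshold of 2 CPM/kb) and 14747 (threshold of 0.5 CPM/kb), and it was 13199 with TMM and 13203 with size factors of DESeq2. Of 423 genes in the lists 204 were expressed, and 167 to 258 under the alternatives, with the most when CPM was not divided by length. At that setting the mark was 1 CPM, and 14618 features passed in place of 13204. GABAergic genes then numbered 15, proliferation genes 13, choroid plexus genes 11, subpallial and striatal genes 8 each, Schwann cell genes 6, diencephalic genes 5, endothelial genes 4 and border macrophage genes 3. The same member led in 63 families without length correction and in 79 to 84 under every other alternative. Leaving out an animal gave 13329 to 13379 features, 205 to 212 list genes, 82 to 84 families and 18 pairs, and a median SD between animals of 0.079 to 0.12, the lowest without 513.

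Without length correction the log2 ratio of the leading member to the next was -0.89 for *Mapt*, -1.33 for *Stmn3*, -0.58 for *Syn1*, -1.28 for *Snap47*, -1.09 for *Cplx1*, -1.16 for *Homer3*, -0.19 for *Gabra5*, -0.34 for *Kcnd2*, -0.048 for *Atp1b1* and -0.18 for *Calm3*. It was -0.090 for *Ywhae*, -0.84 for *Gnai2*, -0.30 for *Slc2a1*, -0.68 for *Rbfox1*, -0.39 for *Celf4*, -0.50 for *Id3*, -0.98 for *Rfx4* and -0.23 for *Fabp7*, and it was -0.45 in 1 family not reported here, while *Scn3a* over *Scn1a* came to 0.13. With the longest annotated transcript in place of all exons, an alternative chosen after seeing the data, *Mapt* came to -0.13 and *Syn1* to -0.34. Longer exonic annotation lowers CPM/kb by construction, so these leading places rest on the length used. A pseudocount of 0.5 CPM, also added later, gave a median SD of 0.12.

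No paired analysis was possible because a single genotype was described and library numbers were not compared between groups. With 3 animals, 1 of which went against its sex label, rare cell types near the floor of 3 counts could not be resolved, and counts of bulk RNA give no cell numbers.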
